A study of Mus musculus with 285 samples.

Results

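The Rab GTPase genes were followed in the neuron segments of 5 brain regions from 15 irradiated or sham-irradiated mice. The members were all genes on the spatial transcriptome panel whose name is Rab, a number and at most 1 letter, which gave 59 genes of 19962. Another 10 names that carry a suffix, such as interacting proteins and GTPase-activating proteins, were kept out by this rule. All 59 members were matched to a RefSeq gene through the gene ID on the panel, and each was read by 1 probe, so levels were compared between samples for a gene and never between genes.

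Female C57BL/6J mice, 9 weeks old by the labels, received whole-brain electron irradiation at an ultra-high dose rate in a single pulse per fraction (FLASH, 5.6e+06 Gy/s) or at a conventional dose rate (CONV, 0.09 Gy/s). There were 5 groups of 3 mice: sham-irradiated controls (CTRL), FLASH 1 × 10 Gy, CONV 1 × 10 Gy, FLASH 3 × 10 Gy and CONV 3 × 10 Gy, and brains were collected 24 h after irradiation ended. In fixed, paraffin-embedded sections a NeuN stain outlined neurons in the CA1, CA3, dentate gyrus (DG) and stratum oriens (SO) of the hippocampus and in 2 areas of cortex per mouse, and the probes in those outlines were counted with the GeoMx Digital Spatial Profiler. Such a segment holds the cut profiles of many neurons and whatever crosses them, so that fewer cells of a type and less RNA per cell cannot be told apart.

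Rab proteins are small GTPases that give membranes their identity. A guanine nucleotide exchange factor (GEF) loads a Rab with GTP on the membrane it serves, the GTP form recruits effectors that move, tether or fuse vesicles, a GTPase-activating protein (GAP) ends the signal, and a carrier takes the inactive protein through the cytosol to its next membrane. In neurons the Rab3 proteins sit on synaptic vesicles and set their readiness for release, Rab6 proteins drive transport at the Golgi, Rab5 marks early endosomes, Rab4, Rab11 and Rab15 act in recycling, and Rab7 leads late endosomes to the lysosome.

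The promoters of *Rab3a*, *Rab6a*, *Rab6b* and *Rab15*, whose levels differed most between hippocampal fields, are printed with that of *Rab29*, the member called lower with FLASH in the hippocampus at the smallest p, because the results turn on these 5 genes. Each window runs from 250 bases before to 50 bases after the start site on GRCm38.p6, taken from RefSeq, and is written 5′ to 3′ along the gene. The table holds 2 windows for *Rab3a* and 4 for *Rab15*, of which the 1 nearest the annotated gene start is printed. Capitals mark TGACGT (the core of the cyclic AMP response element), GGGCGG (the GC box) and CCAAT, each searched on both strands.
Rab3a promoter, chr8:70754453-70754752, plus strand: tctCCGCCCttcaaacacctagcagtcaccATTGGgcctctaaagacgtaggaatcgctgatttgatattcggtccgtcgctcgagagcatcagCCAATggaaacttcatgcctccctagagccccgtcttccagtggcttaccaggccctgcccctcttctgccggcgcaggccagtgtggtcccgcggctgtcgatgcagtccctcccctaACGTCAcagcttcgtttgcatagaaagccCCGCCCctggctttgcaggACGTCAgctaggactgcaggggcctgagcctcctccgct
Rab6a promoter, chr7:100607336-100607635, plus strand: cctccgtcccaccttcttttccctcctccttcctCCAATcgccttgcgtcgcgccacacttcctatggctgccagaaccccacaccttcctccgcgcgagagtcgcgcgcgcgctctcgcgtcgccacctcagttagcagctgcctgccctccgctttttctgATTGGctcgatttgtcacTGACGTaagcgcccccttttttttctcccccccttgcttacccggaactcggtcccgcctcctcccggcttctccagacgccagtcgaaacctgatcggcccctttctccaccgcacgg
Rab6b promoter, chr9:103111824-103112123, plus strand: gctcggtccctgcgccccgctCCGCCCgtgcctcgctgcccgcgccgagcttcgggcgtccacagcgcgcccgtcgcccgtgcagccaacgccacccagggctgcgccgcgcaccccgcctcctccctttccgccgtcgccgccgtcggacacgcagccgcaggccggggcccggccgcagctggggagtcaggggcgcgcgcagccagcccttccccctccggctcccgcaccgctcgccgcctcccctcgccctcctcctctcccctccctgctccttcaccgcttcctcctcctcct
Rab15 promoter, chr12:76822475-76822774, minus strand: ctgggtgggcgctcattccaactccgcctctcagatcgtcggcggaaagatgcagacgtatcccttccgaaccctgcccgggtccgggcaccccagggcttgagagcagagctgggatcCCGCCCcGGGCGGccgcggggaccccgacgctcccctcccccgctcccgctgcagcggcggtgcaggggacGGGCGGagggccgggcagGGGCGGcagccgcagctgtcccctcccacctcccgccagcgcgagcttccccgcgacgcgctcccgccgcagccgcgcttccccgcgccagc
Rab29 promoter, chr1:131867027-131867326, plus strand: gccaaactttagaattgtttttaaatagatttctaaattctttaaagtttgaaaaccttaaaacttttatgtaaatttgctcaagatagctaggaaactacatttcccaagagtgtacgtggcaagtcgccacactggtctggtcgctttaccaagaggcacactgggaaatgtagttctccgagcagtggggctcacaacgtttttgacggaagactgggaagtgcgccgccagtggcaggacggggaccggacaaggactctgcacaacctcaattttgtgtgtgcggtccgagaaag
The windows of *Rab3a* and *Rab6a* each held TGACGT, at 2 and 1 places, together with 2 CCAAT motifs. The window of *Rab15* held 4 GC boxes, that of *Rab3a* 2 and that of *Rab6b* 1, and *Rab29* had none of the 3 motifs and the lowest GC content of the 5 (45.3%, against 78.7% for *Rab6b*, 76.3% for *Rab15*, 62.7% for *Rab6a* and 60% for *Rab3a*). Over the 60 windows of the 48 members in the promoter table, GGGCGG was found in 68.3%, against 35.7% of all 32851 promoter windows, and the median GC content was 61.2% against 52.7%. TGACGT was found in 11.7% of member windows against 7.51% of all, its palindrome TGACGTCA, which contains it, in 3.33% against 1.79%, CCAAT in 43.3% against 37.4%, and TATAAA in 6.67% against 13.6%. A match describes the letters of the window only.

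Detection split the members into a small set read nearly everywhere and a long tail near the limit. Of 90 neuron libraries 87 were kept, and a gene counted as detected in a library when its count lay more than 2 geometric SDs above the negative probes, which match no mouse transcript. *Rab3a* and *Rab7* were above this limit in 87 of 87 libraries, *Rab6a* and *Rab14* in 86, *Rab6b* in 85 and *Rab24*, a member linked to autophagy, in 81. The other 53 members were above it in fewer than 90% of libraries. Among the 48 members that passed the detection filter and were tested, 29 (60.4%) were above the limit in at least 50% of neuron libraries, against 48.3% of all 10020 tested genes. The 11 members that were not tested were *Rab7b* (above the limit in 6 libraries), *Rab9* (5), *Rab13* (1), *Rab27b* (4), *Rab30* (3), *Rab34* (9), *Rab44* (3), and *Rab19*, *Rab20*, *Rab25* and *Rab27a* (0 each). *Rab27a* and *Rab27b* act in granule and exosome release and *Rab25* in epithelial recycling. A low reading from 1 probe is a limit of that probe and not a statement that the gene is silent.

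**Figure D1:**
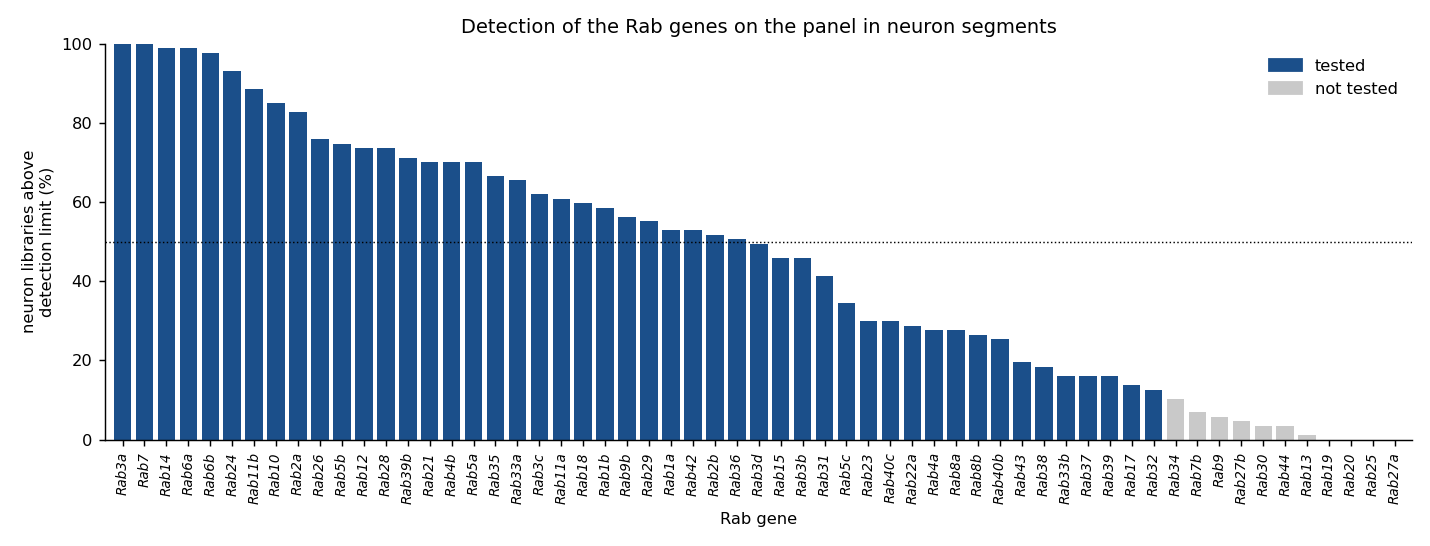
Share of the 87 kept neuron libraries in which each Rab gene was above the detection limit (vertical axis, percent), with the 59 genes along the horizontal axis in falling order. Blue bars are the 48 tested members and grey bars the 11 that were not tested, 4 of them at 0, and the dotted line marks 50%, which 29 members reached.

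Levels are in CPM, counts scaled to a common library total after normalisation. The kept neuron libraries held 157915 to 2022070 counts (median 714453), and no library was near-identical to another. Field markers followed the labels. The summed level of 6 dentate granule cell markers was 459 to 711 CPM in DG against 159 to 254 in CA1, that of 6 CA3 pyramidal cell markers 645 to 1250 in CA3 against 215 to 397 in CA1, and that of 6 CA1 markers 540 to 879 in CA1 against 221 to 310 in CA3. SO segments carried CA1 markers at the CA1 level (539 to 904). Negative probes made up a large background. If every gene probe had read at the negative-probe mean, it would have accounted for 59.1% of counts in CA1, 62.3% in CA3, 48.1% in DG, 58.8% in SO and 59% in cortex, and this share was lower in DG than in both CA1 and CA3 in 14 of 15 mice. The level of the negative probes is therefore given beside some of the results. Folds near that level are compressed, and they are shifted where the negative probes differ between the compared groups. Their mean was 24.2 CPM in DG, 29.4 in CA1 and 31.7 in CA3.

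Between regions, Rab genes differed at a rate close to that of other genes. In the fit across 73 units of 1 mouse and 1 region with the mouse as a block (edgeR quasi-likelihood, Benjamini-Hochberg adjustment over 10020 genes, called at an adjusted p below 0.05), 32 of 48 members (66.7%) differed between any regions, against 60.3% of all genes. This count was 18 once the negative-probe mean had been subtracted and 20 with the background share as a covariate, against 47.8% and 44.1% of all genes. The direction was uneven for DG. Against the mean of CA1 and CA3, 23 members were lower in DG and 0 higher, whereas 28.2% of all genes were lower and 22.3% higher, and the median log2 fold was -0.18 over the members and -0.04 over all genes.

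*Rab6a*, which directs vesicles at the Golgi, had the largest difference. Its level ran from 65.4 to 170 CPM in DG (median 140), from 182 to 361 in CA1 (median 292), from 156 to 567 in CA3 (median 346), from 131 to 373 in SO (median 293) and from 142 to 253 in cortex (median 217), with the negative probes at 24.2 to 31.7. No DG value reached the lowest CA1 value. Within a mouse, DG lay below the mean of CA1 and CA3 in 15 of 15 mice, by 0.60 to 2.09 on the log2 scale in size, and the fitted log2 fold was -1.15 ± 0.07 (SE; adjusted p = 7.2e-34).

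*Rab3a*, the main Rab of synaptic vesicles, ran from 117 to 215 CPM in DG (median 152), 131 to 275 in CA1 (median 215), 122 to 471 in CA3 (median 342), 146 to 265 in SO (median 182) and 159 to 369 in cortex (median 270). The ranges of all 5 regions overlapped, yet DG was below the mean of CA1 and CA3 in 15 of 15 mice (log2 fold -0.72 ± 0.07, adjusted p = 4.82e-17). *Rab3c*, another synaptic vesicle Rab, had medians of 38.5 CPM in DG, 52.4 in CA1 and 56.7 in CA3, was also lower in DG in 15 of 15 mice (-0.60 ± 0.08, adjusted p = 4.93e-12) and stood closer to background. *Rab3b* fell less (-0.23) and *Rab3d* did not pass the test (-0.11).

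*Rab6b*, the Rab6 form enriched in neurons, ran from 60.7 to 131 CPM in DG (median 106), from 84.9 to 175 in CA1 (median 135) and from 93.5 to 290 in CA3 (median 226). As a mean ratio to the negative probes it stood at 4.58 in DG, 4.61 in CA1 and 7.33 in CA3. *Rab6b* was lower in DG than the mean of CA1 and CA3 in 14 of 15 mice, with a fitted log2 fold of -0.66 ± 0.07. *Rab15*, a Rab of early and recycling endosomes that is abundant in brain, had medians of 34.9 CPM in DG, 42.9 in CA1, 79.4 in CA3, 45.4 in SO and 58.8 in cortex. Its fold of -0.78 ± 0.08 was set mainly by CA3, since DG and CA1 both lay near the negative probes (24.2 and 29.4 CPM) and *Rab15* was above the detection limit in 3 DG and 0 CA1 libraries against 13 in CA3.

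**Figure D2:**
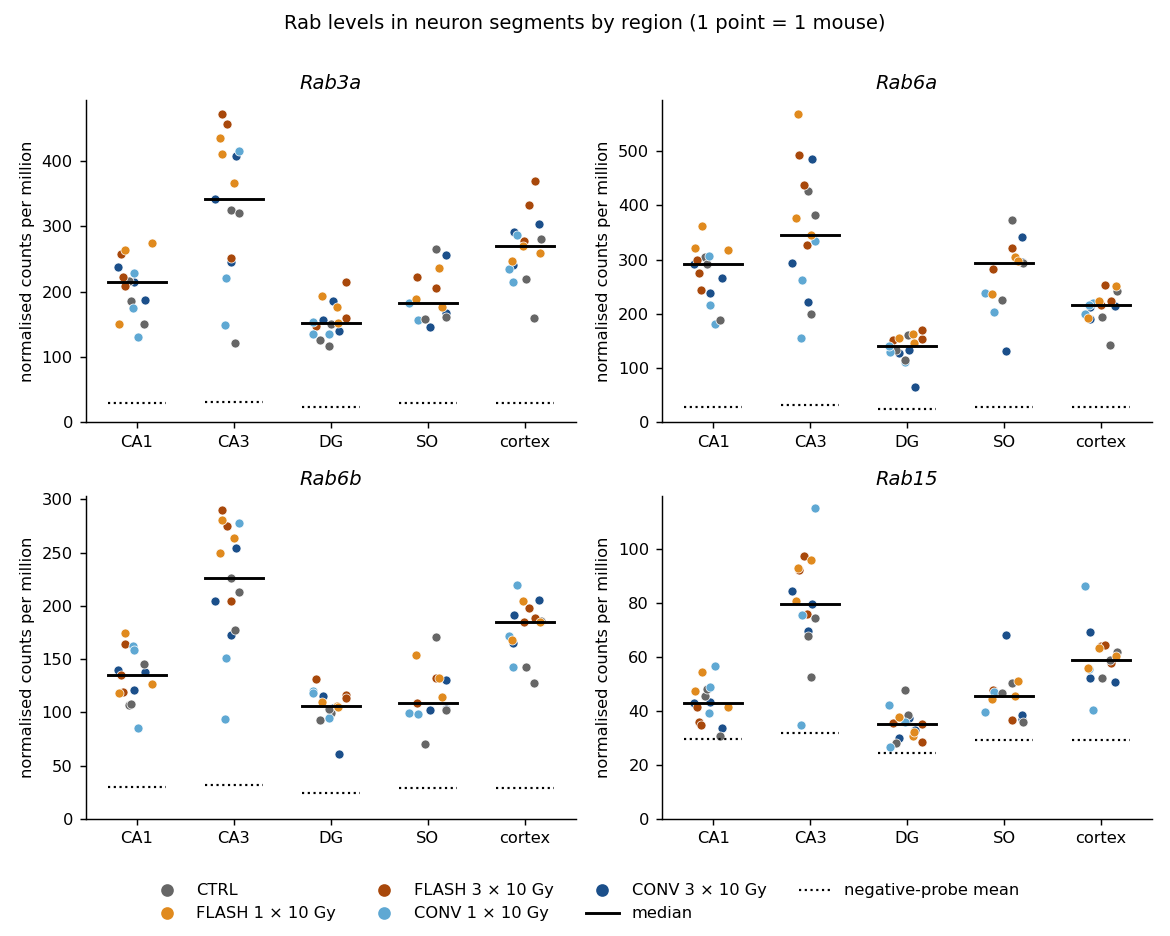
Normalised CPM (vertical axes, linear from 0) of 4 Rab genes in the neuron segments of 5 regions (horizontal axes), with 1 point per mouse coloured by treatment, solid lines at the median and dotted lines at the mean of the negative probes. *Rab6a* in DG (65.4 to 170) lies below every CA1 point (182 to 361), and *Rab3a*, *Rab6b* and *Rab15* have their highest medians in CA3 (342, 226 and 79.4).

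The remaining 18 members called lower in DG had log2 folds from -0.43 to -0.17. The negative probes were lower in DG too (24.2 CPM against 29.4 in CA1 and 31.7 in CA3). A gene at that level would show a fold of this sign. As a mean ratio to the negative probes, *Rab29* stood at 1.98 in DG against 1.84 in CA1 and 1.82 in CA3. *Rab26* stood at 2.06 against 2.12 and 2.28. The ratio was higher in DG than in both CA1 and CA3 for *Rab9b*, *Rab37*, *Rab18*, *Rab29*, *Rab35*, *Rab39b*, *Rab2b*, *Rab33a* and *Rab12*. It was below both for *Rab26* and *Rab4b*. For the rest it lay between CA1 and CA3 or, for *Rab3b*, level with CA3 (1.68). The 18 members were *Rab26*, *Rab8b*, *Rab4a*, *Rab4b*, *Rab14*, *Rab9b*, *Rab7*, *Rab38*, *Rab37*, *Rab18*, *Rab29*, *Rab11a*, *Rab35*, *Rab3b*, *Rab39b*, *Rab2b*, *Rab33a* and *Rab12*. By role, 5 of 6 tested members of regulated secretion were lower, 5 of 7 of the recycling endosome, 5 of 10 of the ER and Golgi, 4 of 6 of transport from the Golgi to the plasma membrane, 3 of 6 of the late endosome and lysosome, and 1 of 7 of the less studied members. Over all genes 28.2% were lower, and no role was tested against this share. Of the 6 early endosome members, among them *Rab5a*, *Rab5b* and *Rab5c*, 0 were called in this edgeR fit, with log2 folds from -0.15 to 0.00.

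The lower DG levels of *Rab6a* and *Rab3a* were found in each treatment group. The mean within-mouse log2 difference of *Rab6a* was -1.08 in CTRL, -1.26 and -1.08 after 1 and 3 fractions of FLASH, and -0.89 and -1.47 after 1 and 3 fractions of CONV. That of *Rab3a* was -0.66, -0.79, -0.78, -0.53 and -0.72 in the same order. With the 3 CTRL mice alone, 6 members (12.5%) were called, all lower in DG and with the 5 largest folds among them, where 12.1% of all genes were called in either direction. The lower background share of DG moved with these folds. With the background share added as a covariate 12 members were lower and 1 higher, where 26% of all genes were called, and with the negative-probe mean subtracted 16 were lower and 1 higher, where 40% were called, while the log2 fold of *Rab6a* became -1.54 under both settings and that of *Rab3a* -1.08 and -1.03. Of 6 pan-neuronal markers, 1 of which (*Rbfox3*) encodes the NeuN used to outline the segments, 4 were lower and 2 higher in DG (median log2 fold -0.45), of 7 oligodendrocyte markers 6 were lower and 1 higher (median -0.45), and of 7 interneuron markers 5 were lower and 1 higher (median -0.48). Their part in the Rab folds was not tested.

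CA3 against CA1 ran the other way. Here 10 members were higher and 1 lower, against 14.4% and 8.9% of all genes, with a median log2 fold of 0.13 over the members and 0.03 over all genes. The negative probes were higher in CA3 too (31.7 CPM against 29.4 in CA1). A gene at that level would read higher in CA3. *Rab15* was higher in CA3 in 14 of 15 mice (34.6 to 115 CPM against 30.6 to 56.6 in CA1, log2 fold 0.90 ± 0.09, adjusted p = 2.03e-16). *Rab6b* was higher in 14 of 15 (93.5 to 290 against 84.9 to 175, 0.79 ± 0.08, adjusted p = 4.54e-16). *Rab3a* was higher in 14 of 15 as well (122 to 471 against 131 to 275, 0.67 ± 0.08, adjusted p = 8.83e-12). In all 3 the ranges of the fields overlapped, at the low end through mice whose CA3 level stayed near that of CA1.

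*Rab10*, which carries membrane to the growing axon and the cell surface, followed with 0.57 ± 0.16 (adjusted p = 0.00491, higher in 14 of 15 mice) and *Rab6a* with 0.37 ± 0.08 (adjusted p = 9.49e-05, higher in 12 of 15). The remaining higher members were *Rab7* (0.33), *Rab11a* (0.32), *Rab14* (0.29), *Rab39* (0.28) and *Rab5c* (0.24). *Rab8b*, an exocytic Rab, was the only member lower in CA3, in 13 of 15 mice (-0.32 ± 0.10, adjusted p = 0.009). *Rab39* was above the detection limit in 6 CA3 and 0 CA1 libraries and *Rab8b* in 0 and 6. *Rab7* and *Rab14* were above it in all 15 libraries of both fields.

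The mean CA3 minus CA1 difference of *Rab6b* was positive in every group, from 0.28 in CONV 1 × 10 Gy to 0.94 in FLASH 1 × 10 Gy, and that of *Rab3a* ran from 0.36 in CTRL to 0.86 in FLASH 1 × 10 Gy. With the CTRL mice alone 1 member, *Rab6b*, was still called (0.76, adjusted p = 0.000882), and *Rab3a* and *Rab15* had log2 folds of 0.47 and 0.63 (adjusted p = 0.0807 and 0.0603). CA3 segments also carried more neuronal and oligodendrocyte transcript. The summed level of the 6 neuronal markers was 1098 to 3784 CPM in CA3 (median 2617) against 766 to 1501 in CA1 (median 1268), and 7 of 7 oligodendrocyte markers were higher in CA3 (summed median 689 against 393 CPM, where negative probes alone would give 222 and 206). Their part in the Rab folds was not tested.

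**Figure D3:**
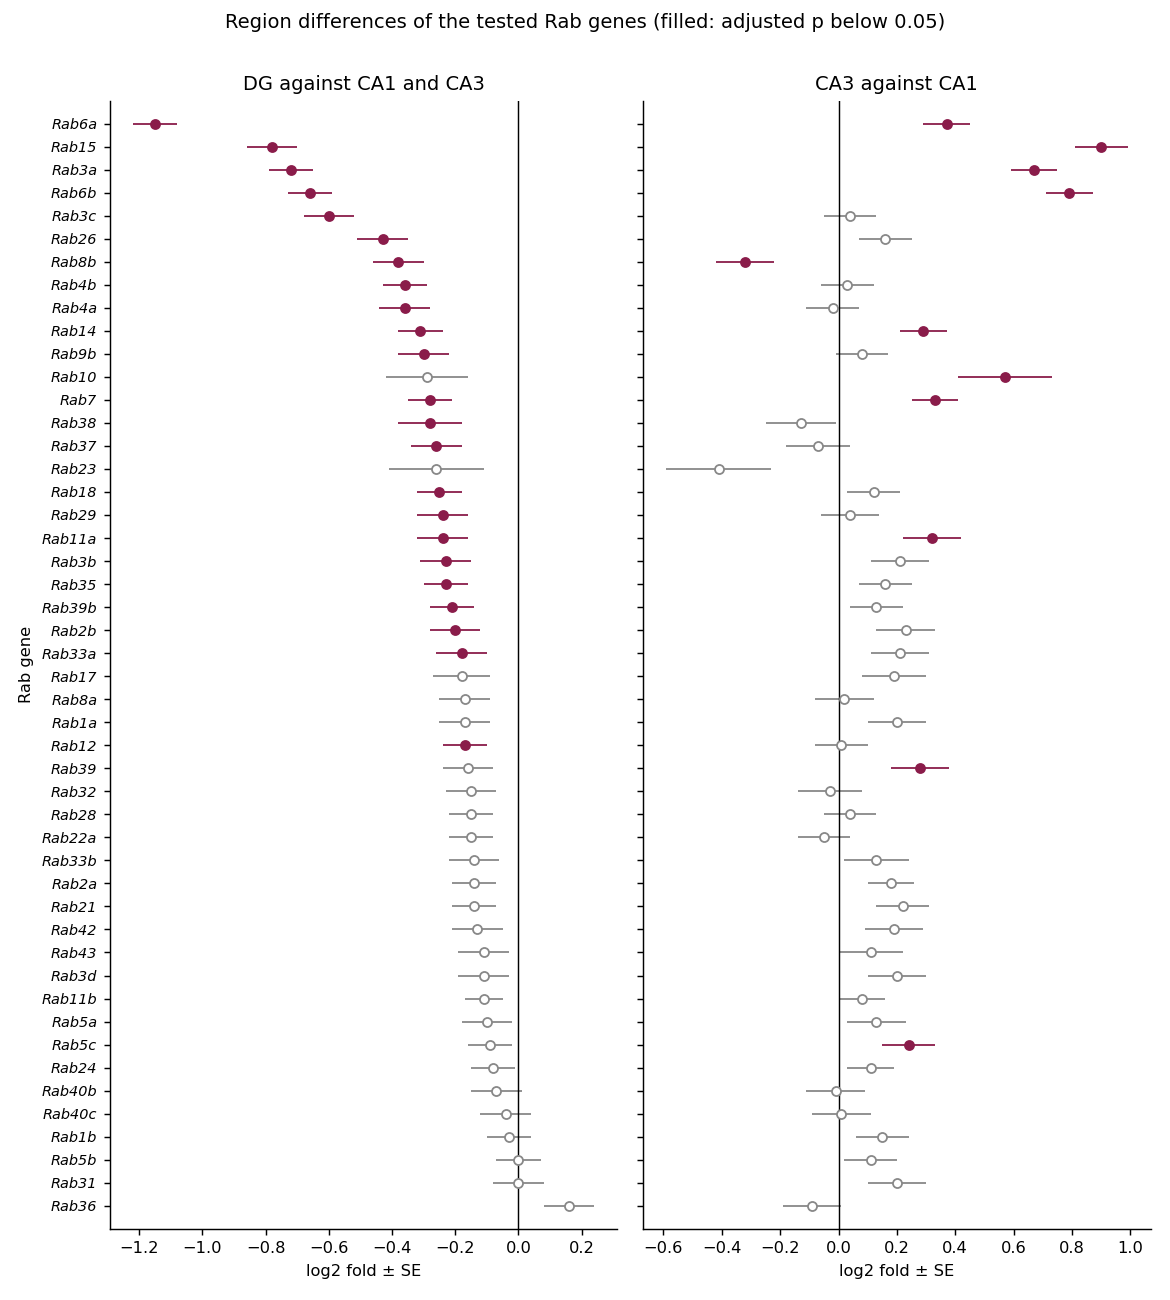
Fitted log2 folds with SE (horizontal axes) of the 48 tested Rab genes for DG against the mean of CA1 and CA3 and for CA3 against CA1, in the order of the DG folds. Filled points have an adjusted p below 0.05: 23 lie below 0 in DG, led by *Rab6a* (-1.15), and 10 lie above 0 in CA3 with *Rab8b* (-0.32) alone on the other side.

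SO and CA1 were not told apart by any member. The edgeR fit called 0 members, 0 members had an unadjusted p below 0.05 and DESeq2 called 0, and over all genes 0.00998% were higher and 0% lower. An unadjusted p below 0.05 was reached by 538 of the 10020 genes. The 5 members with the smallest p were *Rab32* (-0.26 ± 0.13, adjusted p = 0.929), *Rab8b* (-0.23 ± 0.12, 0.934), *Rab4b* (-0.20 ± 0.11), *Rab40b* (-0.23 ± 0.13) and *Rab4a* (-0.20 ± 0.12, 0.962).

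Cortex against the mean of CA1 and CA3 gave 4 members higher and 4 lower, against 13.1% and 11.3% of all genes. *Rab6a* was again the largest fall (-0.53 ± 0.07, adjusted p = 8.51e-12, lower in 14 of 15 mice). *Rab32* (-0.26 ± 0.08), *Rab2a* (-0.25 ± 0.06), an ER and Golgi Rab, and *Rab28* (-0.17 ± 0.06), a Rab of cilia, were the others. Higher in cortex were *Rab3b* (0.26 ± 0.07), *Rab31* (0.23 ± 0.07), a Rab of the endosome and Golgi, *Rab36* (0.20 ± 0.07) and *Rab3c* (0.18 ± 0.06). *Rab28* was the least steady of the 8, losing its call when any 1 of 8 mice was left out. Of the 6 cortical neuron markers tested, 6 were higher. Other lists moved in this comparison too, with 4 of 5 astrocyte markers higher (median log2 fold 0.28), 4 of 7 interneuron markers higher and 1 lower, and 5 of 6 CA3 pyramidal markers lower (median -0.67), and their part in the Rab folds was not tested.

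Among the proteins that switch and use Rabs, more GEFs were called higher than lower in DG, and effectors were nearly evenly split. More GAPs and membrane-cycle genes were called lower than higher. Over all genes 22.3% were higher and 28.2% lower, and no list was tested against these shares. Of 22 tested GEFs, 9 were higher and 2 lower in DG than in CA1 and CA3, led by *Sbf1* (0.50 ± 0.06), *Dennd4a* (0.30 ± 0.07), *Dennd6b* (0.27 ± 0.07) and *Dennd1a* (0.27 ± 0.07). Of 29 effectors 7 were higher and 8 lower, among them *Rph3a*, the rabphilin that binds Rab3 on synaptic vesicles (1.11 ± 0.07, adjusted p = 4.98e-35), *Fyco1*, which links Rab7 vesicles to kinesin (0.95 ± 0.08), *Appl2* (0.59 ± 0.08) and *Rilpl1* (0.56 ± 0.06). Of 21 GAPs 2 were higher, among the 4 with the smallest p *Sgsm2* (0.55 ± 0.06) and *Evi5* (0.33 ± 0.07), and 5 were lower, including *Rabgap1l* (-0.36 ± 0.07) and *Tbc1d1* (-0.30 ± 0.08). In the membrane cycle 1 of 7 was higher (*Arl6ip5*, 0.21 ± 0.07) and 3 were lower, among them *Rabac1* (-0.38 ± 0.07) and *Rabif* (-0.21 ± 0.08). The levels of *Rab3a* and of its effector *Rph3a* thus differed in opposite directions in DG.

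In CA3 against CA1 they differed in the same direction, with *Rph3a* at 1.25 ± 0.10 (adjusted p = 2.16e-24) and *Rims1*, which ties Rab3 to the release site, at 0.69 ± 0.08 (adjusted p = 5.02e-13). *Madd*, a GEF of Rab3, was higher as well (0.36 ± 0.08, adjusted p = 8.42e-05), as were 4 of 7 membrane-cycle genes, among them *Gdi2* (0.37 ± 0.10), *Rabac1* (0.36 ± 0.09) and *Arl6ip5* (0.24 ± 0.09). Among GEFs 2 were higher and 3 lower (*Sbf2*, -0.42 ± 0.09), among GAPs 5 higher and 1 lower (*Tbc1d1*, -0.53 ± 0.10) and among effectors 6 higher and 3 lower (*Fyco1*, -0.49 ± 0.11). Over all genes 14.4% were higher and 8.9% lower in CA3. In cortex against CA1 and CA3, 13 effectors were higher and 1 lower, led by *Osbpl1a* (0.94 ± 0.07), *Rph3a* (0.70 ± 0.07), *Rims3* (0.60 ± 0.07) and *Mical3* (0.43 ± 0.06), with 3 GEFs higher and 4 lower, 5 GAPs higher and 3 lower, and 2 membrane-cycle genes higher. The shares of all genes there were 13.1% higher and 11.3% lower.

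For the treatments, counts of the 4 hippocampal fields were summed per mouse and the slide was held in the fit. Every slide held FLASH and CONV mice, but only 1 of the 5 slides held both a CTRL and a FLASH 1 × 10 Gy mouse, so that comparison leans on few mice. That slide was also the only slide with both a CTRL and a CONV 1 × 10 Gy mouse, so the same limit holds there. FLASH 1 × 10 Gy against CTRL in the hippocampus gave 2 members higher and 2 lower, where 6.78% of all genes were higher and 4.7% lower. *Rab3a* measured 245, 212 and 131 CPM in CTRL mice ID554, ID559 and ID564 and 259, 259 and 236 CPM in FLASH mice ID565, ID567 and ID568. The groups overlapped through CTRL mouse ID554, and CTRL mouse ID564 was far below the rest. The slide-adjusted log2 fold was 0.97 ± 0.21 (adjusted p = 0.00467), against 0.35 with no slide term (adjusted p = 0.699).

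*Rab6b* measured 162, 140 and 118 CPM in CTRL and 153, 169 and 164 CPM in FLASH 1 × 10 Gy, again overlapping through mouse ID554 (0.58 ± 0.19, adjusted p = 0.0426). *Rab29*, a Golgi and lysosome Rab known for its link to the kinase LRRK2, measured 47.8, 61.6 and 72.5 CPM in CTRL and 53, 49.1 and 38.7 CPM in FLASH (-0.61 ± 0.17, adjusted p = 0.02). *Rab39* measured 38.8, 46.1 and 66.7 CPM in CTRL and 44, 39.7 and 37.3 CPM in FLASH (-0.59 ± 0.18, adjusted p = 0.0265). In both the highest value was that of CTRL mouse ID564 and the groups overlapped. Leaving out mouse ID564 gave 0 members and 0% of all genes called. Leaving out CONV mouse ID561, which shares a slide with 2 FLASH mice, gave 0 members and 0.978% of all genes. Without CTRL mouse ID554 there were 9 members and 16.8% of all genes. The background share was 54.1, 59.4 and 67.8% in the CTRL mice and 52.8, 50 and 50.1% in the FLASH 1 × 10 Gy mice. With that share as a covariate 0 members and 0% of all genes were called. The neuronal markers moved as well, 5 of 6 higher (median log2 fold 1.01), and their part in the Rab folds was not tested.

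The other comparisons with CTRL called 0 members in edgeR and 0 in DESeq2, and at most 0.00998% of all genes in either direction in edgeR. In the hippocampus 4 of 48 members had an unadjusted p below 0.05 for FLASH 3 × 10 Gy, against 462 of 10020 genes. For CONV 1 × 10 Gy there were 2 members and 316 genes, and for CONV 3 × 10 Gy 1 member and 371 genes. *Rab23*, which in the mouse holds back Hedgehog signalling, had the smallest p of the members in these 3 comparisons, which share the CTRL mice. Its log2 folds were -0.53 ± 0.16 (adjusted p = 0.979), -0.50 ± 0.22 (adjusted p = 0.999) and -0.41 ± 0.17 (adjusted p = 0.998), in that order. The CA1 library of CTRL mouse ID559 held 172 *Rab23* counts of 634577 (271 CPM), while the CA1 libraries of the other 14 mice lay between 20.2 and 62.8 CPM. Without that mouse the log2 folds were -0.10, -0.35 and -0.00, in the same order. After *Rab23* came *Rab33b* (-0.32), *Rab2a* (0.28), *Rab42* (-0.26) and *Rab21* (-0.21) for FLASH 3 × 10 Gy, *Rab36* (-0.33), *Rab5b* (-0.29), *Rab8b* (-0.35) and *Rab40c* (-0.27) for CONV 1 × 10 Gy, and *Rab10* (-0.26), *Rab31* (-0.28), *Rab40b* (0.22) and *Rab22a* (0.21) for CONV 3 × 10 Gy.

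In the cortex 8 members had an unadjusted p below 0.05 for FLASH 1 × 10 Gy, 2 for FLASH 3 × 10 Gy, 2 for CONV 1 × 10 Gy and 0 for CONV 3 × 10 Gy. The 5 members with the smallest p for FLASH 1 × 10 Gy were *Rab39* (-0.72 ± 0.26, adjusted p = 0.219), *Rab37* (-0.68), *Rab33b* (-0.61), *Rab6b* (0.61) and *Rab29* (-0.55). They were *Rab40c* (-0.43), *Rab3a* (0.50), *Rab39b* (0.35), *Rab11a* (0.31) and *Rab23* (0.31) for FLASH 3 × 10 Gy, and *Rab11a* (0.52), *Rab8a* (0.58), *Rab39* (-0.48), *Rab6b* (0.43) and *Rab23* (-0.43) for CONV 1 × 10 Gy. For CONV 3 × 10 Gy they were *Rab10* (1.08 ± 0.47, adjusted p = 0.999), *Rab40b* (-0.37), *Rab32* (-0.27), *Rab6b* (0.28) and *Rab29* (-0.25), and the *Rab10* value was carried by mouse ID550. A test of whether a treatment effect differed between hippocampus and cortex called 0 members (smallest adjusted p 0.606) and 0 of all genes.

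FLASH against CONV, with both doses averaged and 6 mice on each side, asked whether levels differed by dose rate at equal dose. In the hippocampus 5 members were higher and 5 lower with FLASH, against 12.2% and 11.2% of all genes, so that the members' share was near the background. *Rab6a* measured 248, 250 and 335 CPM after 1 fraction of FLASH, 256, 304 and 313 after 3, 207, 150 and 222 after 1 fraction of CONV and 227, 229 and 270 after 3. Only CONV mouse ID553, at 270, reached into the FLASH range, and FLASH was higher on 5 of 5 slides (0.50 ± 0.12, adjusted p = 0.00382).

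*Rab3a* measured 259, 259 and 236 CPM after 1 fraction of FLASH, 207, 319 and 291 after 3, 170, 141 and 260 after 1 fraction of CONV and 230, 253 and 240 after 3. The groups overlapped widely, with CONV mice ID560 and ID561 lowest, and FLASH was higher on 4 of 5 slides (0.46 ± 0.11, adjusted p = 0.00373). *Rab6b* ran from 149 to 194 CPM in FLASH and from 93.2 to 182 in CONV and was higher on 5 of 5 slides (0.39 ± 0.10, adjusted p = 0.00653). *Rab10* (0.31 ± 0.09) and *Rab2a* (0.24 ± 0.09) completed the higher members.

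The 5 lower members had log2 folds from -0.35 to -0.31. *Rab29* measured 53, 49.1 and 38.7 CPM after 1 fraction of FLASH, 44.5, 48.8 and 42.5 after 3, 62.2, 67 and 34.8 after 1 fraction of CONV and 53.9, 64.5 and 42.3 after 3. CONV mice ID563 and ID553 lay among or below the FLASH mice and the other 4 CONV mice lay above them all (-0.35 ± 0.09, adjusted p = 0.00641). *Rab33b*, a Golgi Rab that also binds the autophagy machinery (-0.34 ± 0.10), *Rab8a*, an exocytic and ciliary Rab (-0.32 ± 0.09), *Rab37* (-0.31 ± 0.10) and *Rab39* (-0.31 ± 0.09) were the others. Of the 87 neuron libraries of all regions, *Rab33b*, *Rab37* and *Rab39* were above the detection limit in 14 each, *Rab8a* in 24 and *Rab29* in 48. The 5 higher members were above it in 72 to 87. Over 6 genes, negative probes alone would give 157 CPM in FLASH and 171 in CONV. Of the 48 members, 0 separated the FLASH mice from the CONV mice completely in the hippocampus. How many of all genes did so was not counted. By role, 3 of 10 ER and Golgi members were higher and 1 lower, 1 of 6 of Golgi to plasma membrane transport was higher and 2 lower, and 0 of the 6 early endosome, 7 recycling and 6 late endosome members were called. Over all genes 12.2% were higher and 11.2% lower, and no role was tested against these shares.

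These hippocampal folds moved with the background share, which was 48.5 to 58% in FLASH mice (mean 52) and 43.1 to 66.9% in CONV mice (mean 57). CONV mice ID563 and ID553 had the lowest shares (43.9 and 43.1%) and had the highest *Rab6b* and the lowest *Rab29* of the CONV mice. With the share as a covariate 0 members and 0.02% of all genes were called, and the log2 folds of *Rab6a*, *Rab3a* and *Rab29* were 0.28, 0.32 and -0.17. With the negative-probe mean subtracted 3 lower members and 0 higher ones were called, with 15.4% of all genes called. The fits with no slide term, with the slide as a random block and with the plate in place of the slide called 0 members too, and there 0% of all genes were called. The mixed model over single libraries called 1 higher (*Rab2a*) and 3 lower (*Rab29*, *Rab33b* and *Rab39*), with 6.66% of all genes called. Without CONV mouse ID561 the count was 1, with 1.33% of all genes called. Neuronal markers were higher with FLASH for 5 of 6 (median log2 fold 0.52, summed level 1621 to 2307 CPM in FLASH and 897 to 2021 in CONV), and 3 of 6 CA3 pyramidal markers were higher too (median 0.27), with 1 astrocyte, 1 dentate granule cell and 1 interneuron marker higher and 1 endothelial marker lower. Their part was not tested.

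**Figure D4:**
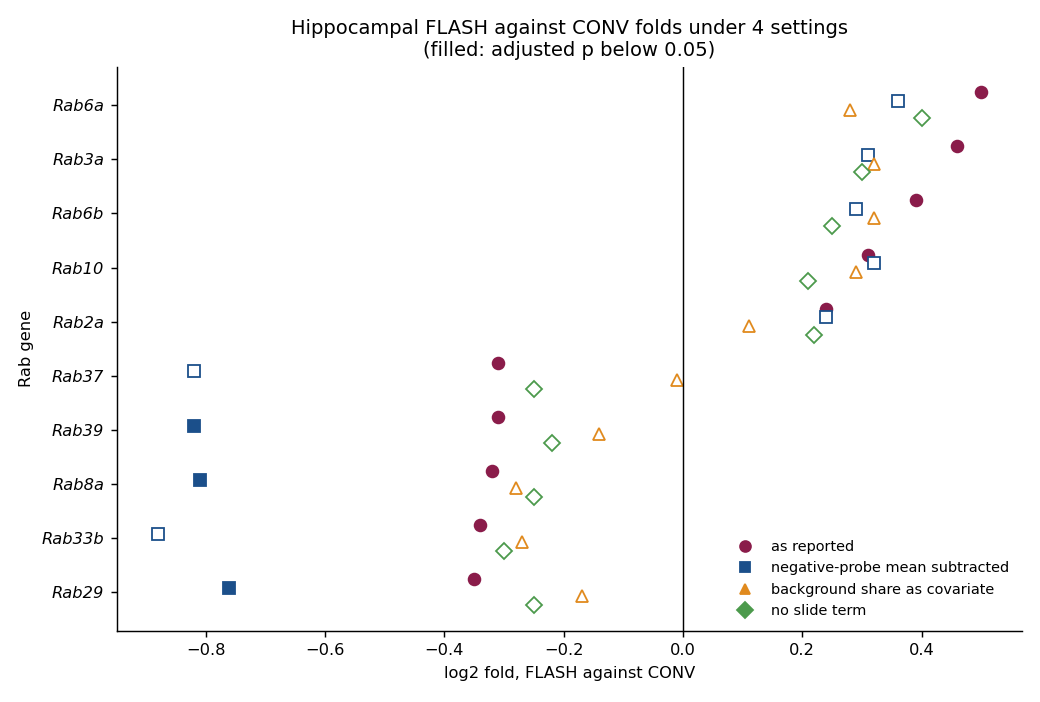
Log2 folds of FLASH against CONV in the hippocampus (horizontal axis) for the 10 called Rab genes under 4 settings, with filled symbols for an adjusted p below 0.05. All 10 are filled as reported, only *Rab29*, *Rab8a* and *Rab39* after the negative-probe mean is subtracted, and 0 with the background share as a covariate or with no slide term.

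By field, most of the calls between dose rates were in CA3. There 3 members were higher and 1 lower with FLASH, against 7.73% and 4.56% of all genes. *Rab3a* measured 422, 355 and 396 CPM after 1 fraction of FLASH, 250, 436 and 451 after 3, 222, 149 and 403 after 1 fraction of CONV and 246, 339 and 392 after 3, with CTRL mice at 318, 316 and 122. FLASH was higher on 5 of 5 slides although the groups overlapped, and the CTRL mice lay within the range of the CONV mice except for mouse ID564, which was below it (FLASH against CONV 0.72 ± 0.15, adjusted p = 0.000204). *Rab6a* ran from 323 to 546 CPM in FLASH and 156 to 468 in CONV (0.74 ± 0.16, adjusted p = 0.000329).

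*Rab6b* in CA3 measured 243, 256 and 271 CPM after 1 fraction of FLASH, 203, 263 and 277 after 3, 152, 93.4 and 270 after 1 fraction of CONV and 173, 203 and 245 after 3 (0.63 ± 0.14, adjusted p = 0.000893). CONV mice ID560, ID561 and ID550 lay below every FLASH mouse and the other 3 lay among them. *Rab29* ran from 34.2 to 61.9 CPM in FLASH and 35 to 89.9 in CONV and was lower on 5 of 5 slides (-0.48 ± 0.16, adjusted p = 0.026). The background share in CA3 was 57.6% in FLASH and 64.5% in CONV on average. With it as a covariate, with no slide term or with a random slide block 0 members were called. The plate fit and the mixed model also called 0, and these settings called at most 0.16% of all genes. Without CONV mouse ID561 there was 1 member, *Rab3a*, with 3.15% of all genes called. *Rab3a* kept its call whichever of the 15 mice was left out. In this comparison 4 of 6 neuronal markers (median 0.70) and 4 of 7 interneuron markers (median 0.68) were higher, 1 CA3 pyramidal and 1 astrocyte marker were higher and 1 endothelial marker was lower, and their part was not tested.

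In DG 1 member was higher and 0 lower, against 1.83% and 1.53% of all genes. *Rab6a* measured 160, 155 and 147 CPM after 1 fraction of FLASH, 153, 169 and 151 after 3, 127, 109 and 141 after 1 fraction of CONV and 133, 65 and 130 after 3. Every FLASH mouse was above every CONV mouse, and CTRL mice at 160, 132 and 114 spanned both. How many of all genes separated FLASH from CONV mice in this way was not counted. *Rab6a* was the only 1 of 48 members whose groups did not overlap, in DG or in any other region (0.43 ± 0.12, adjusted p = 0.0268). It lost its call when any 1 of 7 mice was left out, and with the background share, 43.5% in FLASH and 49.5% in CONV, as a covariate (0.19, adjusted p = 0.94) or in the mixed model (0.45, adjusted p = 0.298). The next members by p were *Rab4b* (-0.36 ± 0.14, adjusted p = 0.127), *Rab10* (0.30 ± 0.13), *Rab32* (-0.37 ± 0.16) and *Rab8a* (-0.36 ± 0.16).

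CA1, SO and cortex called 0 members for FLASH against CONV in edgeR and 0 in DESeq2, with 0.17% and 0.22% of all genes higher and lower in CA1 and 0% in SO and cortex. In CA1, SO and cortex 1323, 745 and 516 of the 10020 genes reached an unadjusted p below 0.05. Of the 48 members 5, 3 and 1 did. In CA1 these were *Rab33a* (-0.51 ± 0.19), *Rab8a* (-0.53 ± 0.20), *Rab38* (-0.49 ± 0.19), *Rab3a* (0.38 ± 0.15, adjusted p = 0.249) and *Rab6a* (0.37 ± 0.15, adjusted p = 0.251). In SO the 5 smallest p belonged to *Rab29* (-0.48), *Rab10* (0.40), *Rab14* (-0.36), *Rab33b* (-0.40) and *Rab39* (-0.38), and in cortex to *Rab17* (-0.31), *Rab37* (-0.26), *Rab33b* (-0.22), *Rab12* (-0.19) and *Rab22a* (-0.20). Whether the FLASH against CONV difference itself differed between fields was not tested.

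**Figure D5:**
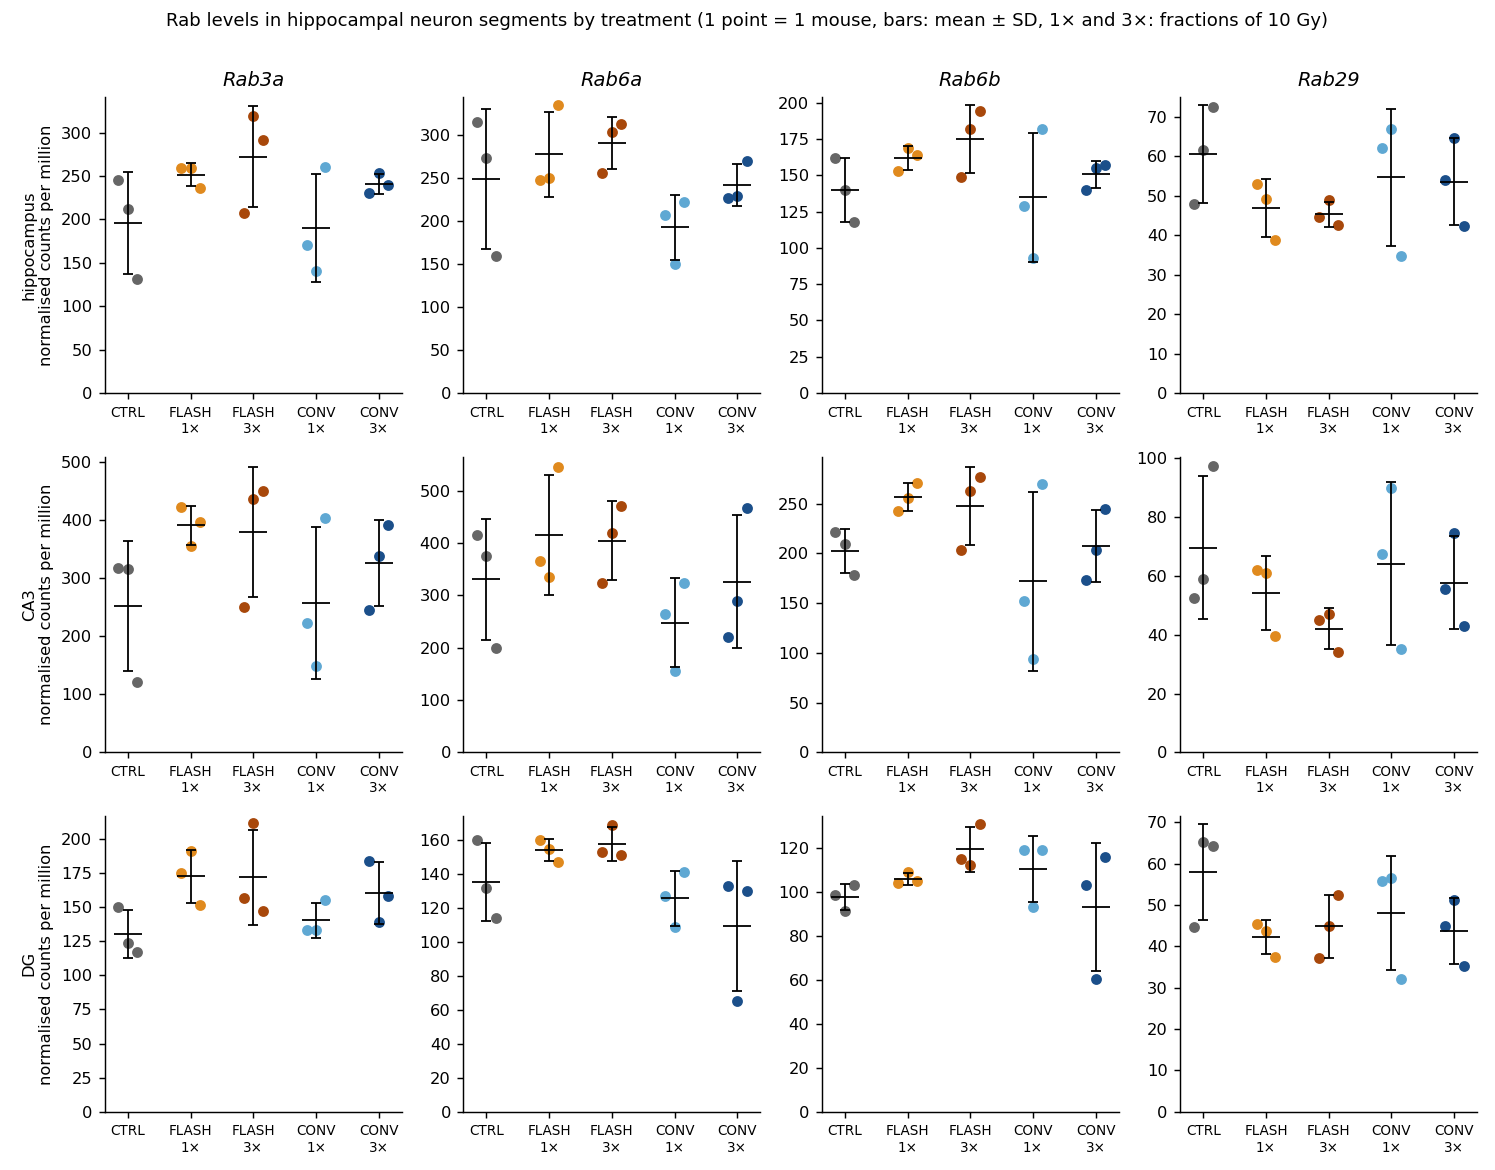
Normalised CPM (vertical axes, linear from 0) of *Rab3a*, *Rab6a*, *Rab6b* and *Rab29* in the summed hippocampus, CA3 and DG by treatment, with 1 point per mouse and bars for the mean and SD of 3 mice. *Rab6a* in DG (147 to 169 with FLASH, 65 to 141 with CONV) is the panel in which the FLASH and CONV mice do not overlap.

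Among the partner genes in the hippocampus, FLASH against CONV called 3 of 7 membrane-cycle genes higher, among them *Gdi2* (0.39 ± 0.09) and *Arl6ip5* (0.38 ± 0.08), and *Rabif* (-0.34 ± 0.10) lower. It called 1 of 22 GEFs higher, *Dennd5a* (0.26 ± 0.08), and 0 of 21 GAPs, of which *Tbc1d14* (0.22 ± 0.09, adjusted p = 0.0676) had the smallest p. Of 29 effectors *Rph3a* was higher (0.38 ± 0.10, adjusted p = 0.00841) and *Optn*, the autophagy receptor optineurin, which binds Rab8, was lower (-0.36 ± 0.09, adjusted p = 0.00413). Over all genes 12.2% were higher and 11.2% lower in this comparison. For FLASH 1 × 10 Gy against CTRL, *Gdi2* (0.71 ± 0.17) and *Dennd5a* (0.49 ± 0.16) were higher and *Optn* was lower (-0.83 ± 0.17, adjusted p = 0.00268).

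Neuron segments were set against astrocyte segments, outlined by GFAP, in the 10 mice that had both in the hippocampus. Here 7 members were higher in neurons and 26 lower, against 35% and 38.1% of all genes. *Rab6a* ran from 150 to 333 CPM in neuron segments and 81.9 to 116 in astrocyte segments, with no overlap (1.42 ± 0.09), and *Rab3a* from 140 to 318 against 68.8 to 143, overlapping only at the edge (1.11 ± 0.10). *Rab6b* (0.83 ± 0.09), *Rab2a* (0.49 ± 0.07), *Rab10* (0.44 ± 0.08), *Rab7* (0.28) and *Rab11b* (0.25) were also higher. The largest falls were *Rab17* (-0.66), *Rab38* (-0.63), *Rab29* (-0.60), *Rab42* (-0.59) and *Rab31* (-0.53), and the other 21 lower members had log2 folds from -0.51 to -0.18. The members called higher with FLASH in the hippocampus, *Rab6a*, *Rab3a*, *Rab6b*, *Rab10* and *Rab2a*, were the 5 with the largest folds towards neuron segments and were higher there in 10 of 10 mice. The 5 called lower with FLASH all had folds towards astrocyte segments (*Rab29* -0.60, *Rab37* -0.51, *Rab39* -0.46, *Rab33b* -0.41 and *Rab8a* -0.32). The hippocampal neuron libraries entered both comparisons. How many of all genes called between FLASH and CONV matched in this way was not counted, and the cause of the match was not tested. The background share was 57.9% in neuron and 83.8% in astrocyte segments, which brings a low gene closer to the negative probes (42.3 CPM in astrocyte segments, 28.8 in neuron segments). A gene at the negative-probe level would read lower in neuron segments for that reason alone. After the negative-probe mean was subtracted 6 members were higher and 21 lower, where 65.8% of all genes were called.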

How the data were processed

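The authors counted photo-released probe barcodes per segment with the GeoMx_NGS_Pipeline 2.0.0 named in the submitters' notes, and the deposited tables hold whole-number counts per probe and library with no normalization. The genome build is not given in the sources used here. Of 285 libraries 225 were kept (at least 1000 raw reads, 80% trimmed, 80% stitched, 75% aligned, 50% saturation, a negative-probe geometric mean of 1, and detection of 5% of genes). The detection limit was 2 geometric SDs above the mean of the 209 negative probes, with a floor of 2 counts. The 3 neuron libraries left out were an SO library of FLASH mouse ID557 (61% aligned), a cortical library of CONV mouse ID551 (321 counts) and an SO library of CONV mouse ID563 (4.63% of genes above the limit). Negative probes (0.899% of counts) and a probe with no listed gene (0.00869%) stayed out of library sizes. Genes above the limit in 5% of kept libraries were tested.

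Counts were summed per mouse and region, or per mouse over the 4 hippocampal fields, scaled by trimmed mean of M-values (TMM) within each fit and tested with edgeR 4.0.16 (robust quasi-likelihood, Benjamini-Hochberg over 10020 genes). A SE is the absolute log2 fold over the square root of F. Region and segment comparisons held the mouse as a block, since a replicate number is a mouse. Over 142 pairs of regions of 1 mouse the median correlation of deviations from the group means was 0.152, against -0.0206 between mice, and 10 of 15 mice had a mean over 0.1. Treatment comparisons held the slide. The study's methods modelled each gene over single libraries with slides as random intercepts, which was run as an alternative. Other alternatives used DESeq2 1.42.0, limma 3.58.1, other scalings and filters, background subtraction or a background covariate, other slide or plate terms, CTRL mice only and each mouse left out. The edgeR fits of the regions, the summed hippocampus and the segments were checked on simulated counts, as were DESeq2 and limma for the hippocampus. The other fits were not checked this way. R 4.3.3 and Python 3.11.15 were used.

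The members, gene lists, roles and marker lists were chosen with earlier results of these data known. Called members are named, the 5 largest rises and the 5 largest falls with their values. Where fewer than 3 were called the 5 smallest p are named, and up to 4 genes per partner list. The values of 1 membrane-cycle gene are not reported here.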

Additional observations from a re-analysis of the deposited data

Results flagged for a closer look

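In CA1, *Rab38*, a Rab of melanosomes and related organelles, measured 63.7 CPM in FLASH mouse ID567, while the other 5 FLASH mice lay between 34 and 40.4. The gap to the nearest mouse was 0.786 of the range of the 6 mice. This was 1 of 68 sets of 6 mice examined, and chance alone marks about 1 set in 20. *Rab38* was not called in CA1.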

How the results depend on the processing

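Counts are of called members. No named member reversed under any alternative run: of 420 alternative values 288 kept their call and 132 lost it, and with a mouse left out 598 of 670 kept it. The 5 largest DG falls kept their call in 49 of 49 alternatives and 75 of 75 values with a mouse left out. For any regions (32 as reported) the count was 18 after background subtraction, 15 under the strict gene filter, which tests 29 members, 18 with single libraries, 6 in CTRL mice and 20 with the background covariate, which was added after seeing the data. Of all genes tested, 47.8%, 71%, 48.9%, 20.1% and 44.1% were called in that order. For DG against CA1 and CA3 (23) it was 15, 6 and 13 under the filter, CTRL mice and covariate, for CA3 against CA1 (11) 7 and 1, and for cortex (8) 5 and 2, under filter and CTRL mice. All tested genes were called at 58.5%, 12.1% and 26% for DG. They were called at 35.4% and 5.74% for CA3 against CA1 and at 34.4% and 7.63% for cortex. CTRL mice only leaves 3 mice.

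FLASH 1 × 10 Gy against CTRL (2 higher, 2 lower) gave 2 with DESeq2 (2 higher), 2 after subtraction, 2 with no gene filter (2 higher), 2 in the mixed model (2 lower) and 0 with no slide term, a random slide, the plate or the covariate, and upper quartile scaling gave 1 higher and 5 lower. Of all genes, DESeq2 called 5.03%, subtraction 9.44%, no gene filter 4.57%, the mixed model 4.2% and upper quartile scaling 12.6%. Hippocampal FLASH against CONV (5 higher, 5 lower) gave 4 with DESeq2 (4 higher), 3 after subtraction (3 lower), 4 in the mixed model (1 higher) and 0 under those same 4 settings, with 4 higher and 7 lower by upper quartile scaling. Here DESeq2 called 9.79% of all genes, subtraction 15.4%, the mixed model 6.66% and upper quartile scaling 24.6%. CA3 (4) gave 0 under the 4 settings and in the mixed model. DG (1) gave 0 after subtraction and in the mixed model, 2 under the strict filter and 0 under the 4 settings. In DG subtraction called 0.589% of all genes, the mixed model 0.02% and the strict filter 7.06%. The mixed model for FLASH against CONV was added after seeing the data. Under the 4 settings at most 0.16% of all genes were called, and the cause was not tested.

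Leaving out 1 mouse gave 24 to 33 members for any regions, 20 to 26 for DG, 9 to 11 for CA3 against CA1, 6 to 10 for cortex and 31 to 35 for neuron against astrocyte segments. FLASH 1 × 10 Gy against CTRL gave 0 to 9 in hippocampus (9 without mouse ID554, 8 without ID553, 2 without ID565, 0 without ID561 or ID564). All genes were called at 16.8%, 19.6%, 2.42%, 0.978% and 0% there, in that order. In cortex it gave 0 to 5 (5 without ID554, with 11.2% of all genes). FLASH 3 × 10 Gy gave 0 to 1 in both (1 without ID554, with 0.02% of all genes in hippocampus and 1.79% in cortex). FLASH against CONV gave 1 to 14 in hippocampus (6 without ID550 or ID565, 1 without ID561), with 9.58%, 16.3% and 1.33% of all genes in that order. It gave 1 to 6 in CA3 (1 without ID561, with 3.15% of all genes). In DG it gave 0 to 2 (2 without ID553 or ID558, with 5.21% and 4.4% of all genes). The DG count was 0 without ID550, ID551, ID557, ID561, ID565, ID567 or ID568, with 0.02% to 2.85% of all genes. With no replicate block the counts were 25, 21, 10, 0 and 7 for the regions and 32 for the segments, so the pairing by mouse moved no count by over 1.5 times. The shares of all genes were 50.6%, 42.7%, 20.2%, 0.00998% and 19.6% for the regions and 72% for the segments. The plate fit for SO was not run because plate and group could not be separated there. Depth and background limit the 19 tested members above the limit in fewer than 50% of libraries. Their folds are compressed, and shifted where the negative probes differ between the compared groups.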

Other observations

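*Rab10* stood out in the cortex of CONV 3 × 10 Gy mouse ID550. Its summed cortical level was 272 CPM, while the other mice lay between 61.9 and 89.2. The excess came from 1 of its 2 cortical neuron libraries, with 635 of 1436524 counts (442 CPM) against 58 of 1101668 counts (52.6 CPM) in the other. The 27 cortical neuron libraries of other mice ran from 38.3 to 125 CPM. In the same area of the section the segment of other cells held 349 of 5995078 counts (58.2 CPM). It carried the *Rab10* value for CONV 3 × 10 Gy against CTRL in cortex (log2 fold 1.08 ± 0.47), which did not pass the test.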
